A study of Mus musculus with 21 samples.

Results

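The 4 muscle actin genes (*Actc1*, *Acta1*, *Acta2* and *Actg2*), 5 genes of actin-binding and contractile proteins (*Tagln*, *Cnn1*, *Myl9*, *Tpm1* and *Tpm2*) and the gene of the transcription factor SRF (*Srf*) were followed through mouse embryonic stem cells (mESCs) that lack or are depleted of cohesin regulators. The 10 genes were taken by symbol from the 23412 gene symbols of the count files, and all 10 were among the 14963 genes with enough counts to be tested. They were chosen by the counts themselves, with earlier results of these data over all 7 conditions in view and no threshold on a value, so their levels and fold changes are given as a description of these libraries.

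PDS5A and PDS5B bind the cohesin ring, which forms chromatin loops, and regulate its release from DNA and its acetylation. STAG1 and STAG2 are alternative subunits of the same ring. The 21 RNA libraries came from v6.5 mESCs grown on gelatin, in 7 conditions of 3 replicates, all transfected with 50 nM siRNA and collected 48 h later. Wild-type cells received siGLO, a transfection control (WT siGLO), or siRNA against *Pds5b* (WT siPds5b). *Pds5b* knockout cells received siGLO (Pds5b-KO siGLO). *Pds5a* knockout cells received siGLO, siPds5b, siStag1 or siStag2. Each knockout genotype was a single CRISPR clone cultured as 3 replicates, made with a pair of guides aimed at a small deletion in 1 exon, so what belongs to the loss of the gene and what belongs to the clone cannot be told apart. P-values measure the spread between replicate cultures, not between clones.

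SRF is a widely expressed transcription factor that binds a short A/T-rich element, the CArG box, in the promoters of contractile and cytoskeletal genes and in its own promoter. Its myocardin-related cofactors (MRTFs) are held by unpolymerised actin and enter the nucleus when actin filaments form, which ties the contractile genes to the state of the cytoskeleton. Its other cofactors, the ternary complex factors (TCFs), respond to MAP kinase signalling and act on immediate early genes such as *Egr1*. Muscle actins are the main actins of differentiated muscle, while stem cells build their cytoskeleton mostly from the cytoplasmic actins encoded by *Actb* and *Actg1*. Mouse embryonic stem cells without SRF are known to form poor actin fibres and focal adhesions.

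Exact CArG boxes were looked for in the promoters of the members, as a description of their sequence. In the RefSeq promoter windows (mm10, 250 bases before to 50 after each start), an exact CArG box (CC and GG around a run of A and T, which reads as a CArG box on both strands) lay upstream of *Actc1* at 47 bases before the start, of *Acta1* at 73, of *Myl9* at 161 and of *Srf* at 82 and 62. The stretches around them are printed with the box in capitals, 5′ to 3′ on the strand of the gene, because they are the members' only exact matches in these windows.
*Actc1*, minus strand, chr2:114052888-114052947: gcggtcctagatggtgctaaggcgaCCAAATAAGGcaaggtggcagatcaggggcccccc
*Acta1*, minus strand, chr8:123894814-123894873: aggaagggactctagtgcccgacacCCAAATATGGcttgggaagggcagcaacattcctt
*Myl9*, plus strand, chr2:156775278-156775337: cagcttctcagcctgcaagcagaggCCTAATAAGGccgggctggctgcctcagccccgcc
*Srf*, minus strand, chr17:46556200-46556259: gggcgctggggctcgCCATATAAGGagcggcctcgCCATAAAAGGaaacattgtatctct

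The 8 members with a window were those 4 genes and *Acta2*, *Cnn1*, *Tpm1* and *Tpm2*, whose windows held no exact match. *Actg2* and *Tagln* had no window here. In the GENCODE annotation of mm10 all 4 stretches lie upstream of the coding transcripts, and that of *Actc1* also lies in the intron of a longer transcript of the gene. Of the 10917 tested genes with a window, 1.59% held an exact CArG box, and of all 27025 windows 1.81% did. A match is a description of these letters, and a window without one says nothing about binding elsewhere. The *Actc1* and *Myl9* genes lie on chromosome 2, *Acta1* on chromosome 8, *Acta2* on chromosome 19, *Actg2* on chromosome 6, *Tagln*, *Cnn1* and *Tpm1* on chromosome 9, *Tpm2* on chromosome 4 and *Srf* on chromosome 17, so the genes are not neighbours of each other except in sharing a chromosome.

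Library totals ran from 17311090 to 23989198 reads counted in genes. *Pds5b* fell from 2219 normalised counts (TMM-scaled to an effective library of 19816922) in WT siGLO to 276 in Pds5b-KO siGLO, 776 in WT siPds5b and 903 in Pds5a-KO siPds5b. The siStag1 and siStag2 libraries held 575 normalised counts of *Stag1* and 875 of *Stag2*, against 2428 and 3256 in Pds5a-KO siGLO. *Pds5a* was at 4271 normalised counts in Pds5a-KO siGLO and 5059 in WT siGLO, so the total count of this gene does not separate the knockout. The study reports that PDS5A protein could not be detected in its *Pds5a* knockout mESCs. Ribosomal 45S precursor RNA (*Rn45s*) took 2.679% of the counts in Pds5a-KO siStag2 replicate 3 and at most 1.436% in the others. Pluripotency markers were high throughout, with the sum over the 9 mESC markers between 84110 and 154460 normalised counts in every library.

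In WT siGLO cells the members covered a wide range. Per kilobase of annotated exon, *Tpm1*, a tropomyosin that lies along actin filaments, had the highest level, 994 normalised counts per kb. *Tagln*, which encodes the actin-binding protein transgelin, was at 787 and *Acta2*, the smooth muscle alpha-actin, at 605. *Srf* was at 440.3 normalised counts per kb, *Tpm2*, another tropomyosin, at 231 and *Myl9*, a regulatory light chain of smooth muscle and non-muscle myosin, at 164. The skeletal alpha-actin *Acta1* had 89.6, the calponin *Cnn1* 42.7, the cardiac alpha-actin *Actc1* 36.7 and the enteric smooth muscle gamma-actin *Actg2* 3.92 normalised counts per kb. The wild-type cultures thus held reads of all 10 genes, with only 11, 2 and 8 reads for *Actg2*. The smooth muscle alpha-actin was the most abundant of the muscle actins per length. Transcripts of the 4 muscle actins share exact stretches of at most 38 bases with each other, and all 6 actins share at most 77 (*Acta1* with *Actb*), shorter than the 150-base reads. The counting tool is not given in the sources used here, and whether it placed shared reads in the wrong actin gene was not tested.

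**Figure D1:**
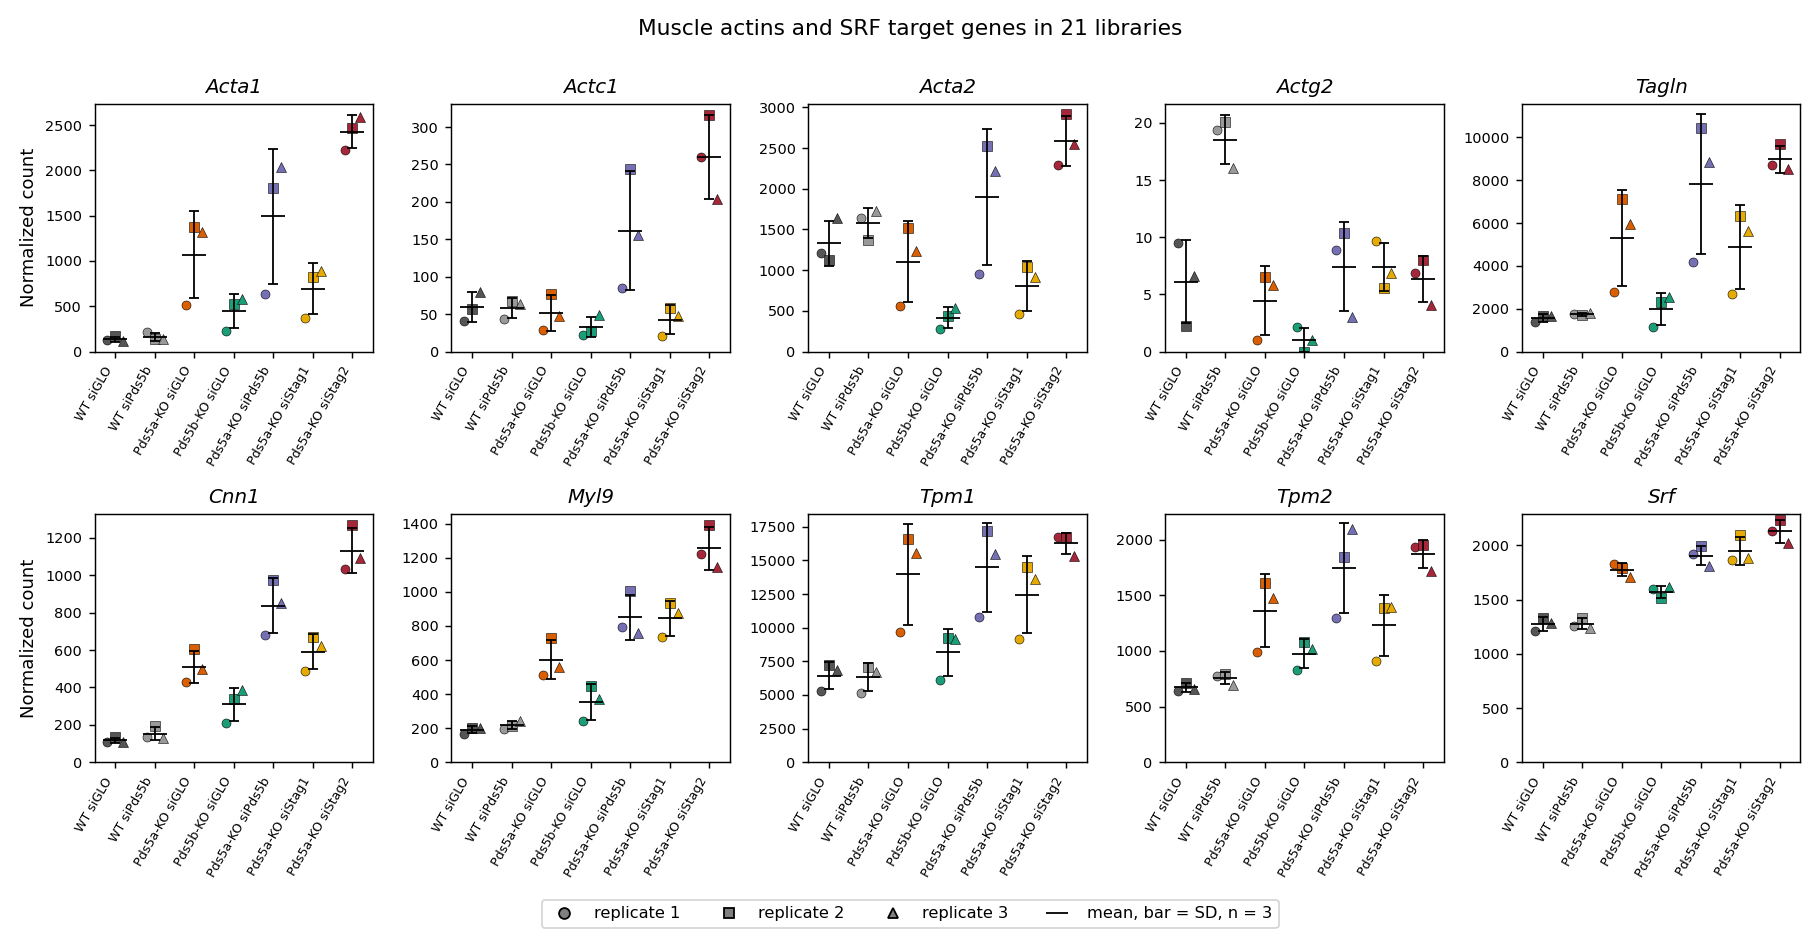
Normalised counts of the 10 genes (linear axis from 0, a scale for each gene) in the 7 conditions, with a point for each of the 3 replicates, a line at the mean and bars of 1 SD. *Acta1*, *Tagln*, *Cnn1* and *Myl9* are higher in each Pds5a-KO condition than in the WT conditions, while *Actc1* stands apart in Pds5a-KO siPds5b and Pds5a-KO siStag2.

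Loss of *Pds5a* alone was compared first (Pds5a-KO siGLO against WT siGLO). In the clone, 7 of the 10 genes passed an adjusted p of 0.01 over all genes tested (edgeR's quasi-likelihood test) and all 7 were higher, where 9.63% of all genes tested were called higher and 8.12% lower. They were *Acta1*, the actin-binding genes *Tagln* and *Cnn1*, the myosin light chain *Myl9*, both tropomyosins, and *Srf*. The median log2 fold change over the 10 genes was 1.07, against 0 over all genes tested. Since the genes were picked with such values known, nothing is read from the count.

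*Acta1* had the largest log2 fold change. Its normalised counts were 125, 169 and 118 in the 3 WT siGLO libraries and 516, 1372 and 1320.5 in Pds5a-KO siGLO. All 3 knockout libraries lay above all 3 wild-type libraries, with replicate 1 well below the other 2. The log2 fold change was 2.97 with an SE of 0.53 (adjusted p = 0.000744, edgeR), a 7.86-fold higher mean. The chromosome of *Acta1*, chromosome 8, moved as a whole the other way: the median log2 fold change of its 781 tested genes was -0.19 in this comparison, and 28.2% of them had a positive value. Its part in the values of *Acta1* was not tested.

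*Cnn1*, whose protein binds actin and restrains the myosin ATPase, went from 109, 134 and 108 normalised counts to 431, 603 and 497. The groups did not overlap, and the lowest knockout library was more than 3-fold above the highest wild-type library. *Myl9* went from 168, 204 and 200.1 normalised counts to 513, 730.5 and 559.99. Its groups did not overlap either. The log2 fold changes were 2.14 with an SE of 0.22 for *Cnn1* (adjusted p = 6.47e-07, edgeR) and 1.66 with an SE of 0.19 for *Myl9* (adjusted p = 1.63e-06).

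*Tagln* was at 1361, 1657 and 1678 normalised counts in WT siGLO and at 2775, 7110 and 5968 in Pds5a-KO siGLO. Every knockout library was higher, but replicate 1 reached less than the others by a wide margin, and the log2 fold change of 1.76 had an SE of 0.41 (adjusted p = 0.00522, edgeR). That call rested on most libraries: it was lost when any 1 of the 3 WT siGLO libraries, Pds5a-KO siGLO replicate 2 or replicate 3 was left out, with adjusted p up to 0.027, and was kept without Pds5a-KO siGLO replicate 1. *Tpm1* moved from 5270.1, 7236 and 6836 normalised counts to 9690.1, 16613 and 15575, a log2 fold change of 1.11 with an SE of 0.24 (adjusted p = 0.0028). Its call was lost without WT siGLO replicate 1 (adjusted p = 0.0164), Pds5a-KO siGLO replicate 2 (0.0155) or replicate 3 (0.013).

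*Tpm2* went from 644, 713 and 658 normalised counts to 988, 1613 and 1478, a log2 fold change of 1.02 with an SE of 0.19 (adjusted p = 0.000807, edgeR). *Srf* itself had the smallest log2 fold change and SE of the 7 genes called. Its normalised counts were 1207, 1332 and 1282 in WT siGLO and 1831, 1788 and 1709 in Pds5a-KO siGLO. The groups were separate, with a log2 fold change of 0.48 and an SE of 0.07 (adjusted p = 1.01e-05).

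The other 3 actins did not pass the threshold in the *Pds5a* knockout. *Acta2* had 1212, 1128 and 1647 normalised counts in WT siGLO and 559.67, 1522 and 1238 in Pds5a-KO siGLO, and *Actc1* had 40.4, 57.5 and 80.2 against 28.4, 76.7 and 48.2. Both pairs of groups overlapped. The log2 fold changes were -0.27 for *Acta2* (adjusted p = 0.676, edgeR) and -0.21 for *Actc1* (adjusted p = 0.768). *Actg2* was too rare for more than its counts: 11, 2 and 8 reads in WT siGLO and 1, 7 and 6 in Pds5a-KO siGLO. Of the 4 muscle actins only *Acta1* was therefore called in this clone. The values of *Acta2* (SE 0.40), *Actc1* (SE 0.43) and *Actg2* (-0.48, SE 0.62) were smaller in size than their standard errors, so their signs are not read. With single libraries left out, *Acta2* ranged from -0.57 to 0.04 and *Actc1* from -0.63 to 0.08.

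The *Pds5b* knockout clone (Pds5b-KO siGLO against WT siGLO) shared the wild-type libraries with the comparison above. It had 3 of the 10 genes called higher, where 9.64% of all genes tested were, and 1 called lower, where 8.57% were. *Cnn1* was at 212, 336 and 384 normalised counts, above all WT siGLO libraries, with a log2 fold change of 1.42 (SE 0.22, adjusted p = 7.82e-05, edgeR). *Myl9* was at 239.6, 447 and 374 normalised counts, and *Srf* at 1596, 1511 and 1614. Both were above every WT siGLO library. Their log2 fold changes were 0.89 (SE 0.19, adjusted p = 0.00137) and 0.31 (SE 0.07, adjusted p = 0.00143). The *Myl9* call was lost without Pds5b-KO siGLO replicate 2 (adjusted p = 0.0109).

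The gene that fell was *Acta2*, with 282, 436 and 534 normalised counts in Pds5b-KO siGLO, all below the lowest WT siGLO library (1128). The log2 fold change was -1.67 with an SE of 0.42 (adjusted p = 0.00803, edgeR). Its direction held whichever library was left out, but the call did not: without any 1 of the 6 libraries the adjusted p lay between 0.0122 and 0.041. Markers of fibroblasts, cells that can also carry *Acta2*, were summed in the same libraries. Over the 9 markers the sum was 1231 to 1619 normalised counts in WT siGLO and 551 to 663 in Pds5b-KO siGLO. Of the 6 tested, 2 were called lower, where 8.57% of all genes tested were. *Fap*, a marker of activated fibroblasts, was at 0 in every WT siGLO library and at 0 to 2 reads in Pds5b-KO siGLO. The part of the markers in the *Acta2* value was not tested, and in bulk RNA fewer cells of a type and less RNA per cell cannot be told apart.

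*Acta1* in Pds5b-KO siGLO was at 232, 525 and 582 normalised counts, above all WT siGLO libraries, with a log2 fold change of 1.72 (SE 0.54) that missed the threshold (adjusted p = 0.0256, edgeR). DESeq2 called it higher (adjusted p = 0.00212). Chromosome 8 as a whole was shifted up in this clone, with a median log2 fold change of 0.30 and 83.4% of its tested genes positive, and its part in the *Acta1* value was not tested. *Tpm2* was at 828, 1077 and 1017 normalised counts (log2 fold change 0.54, adjusted p = 0.0446 with edgeR and 0.00824 with DESeq2). *Tagln*, *Tpm1* and *Actc1* overlapped WT siGLO, with log2 fold changes of 0.35, 0.34 and -0.85. *Actg2* had 2, 0 and 1 reads.

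The knockout clones were also set against each other directly. Of the 10 genes 2 were called higher in Pds5a-KO siGLO than in Pds5b-KO siGLO, where 9.74% of all genes tested were and 9.46% were lower. The log2 differences were 0.71 for *Cnn1* (SE 0.20, adjusted p = 0.0097, edgeR) and 0.77 for *Myl9* (SE 0.18, adjusted p = 0.00267). All 10 genes had positive values, and 9 of them had an unadjusted p under 0.05, as had 6420 of the 14963 genes tested. For *Acta2* all 3 *Pds5a* knockout libraries (559.67 to 1522 normalised counts) lay above all 3 *Pds5b* knockout libraries (282 to 534), with a log2 difference of 1.41 (SE 0.42) and an adjusted p of 0.0198. For *Tagln* the values were 1.40 (SE 0.41) and 0.017. For *Acta1* they were 1.26 (SE 0.48) and 0.0563, and the median log2 difference over chromosome 8 was -0.48. The *Cnn1* call was lost without Pds5a-KO siGLO replicate 2 or 3, or Pds5b-KO siGLO replicate 1 or 2 (adjusted p 0.021 to 0.0635), and the *Myl9* call without Pds5a-KO siGLO replicate 2 (0.0248) or Pds5b-KO siGLO replicate 1 (0.0146).

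**Figure D2:**
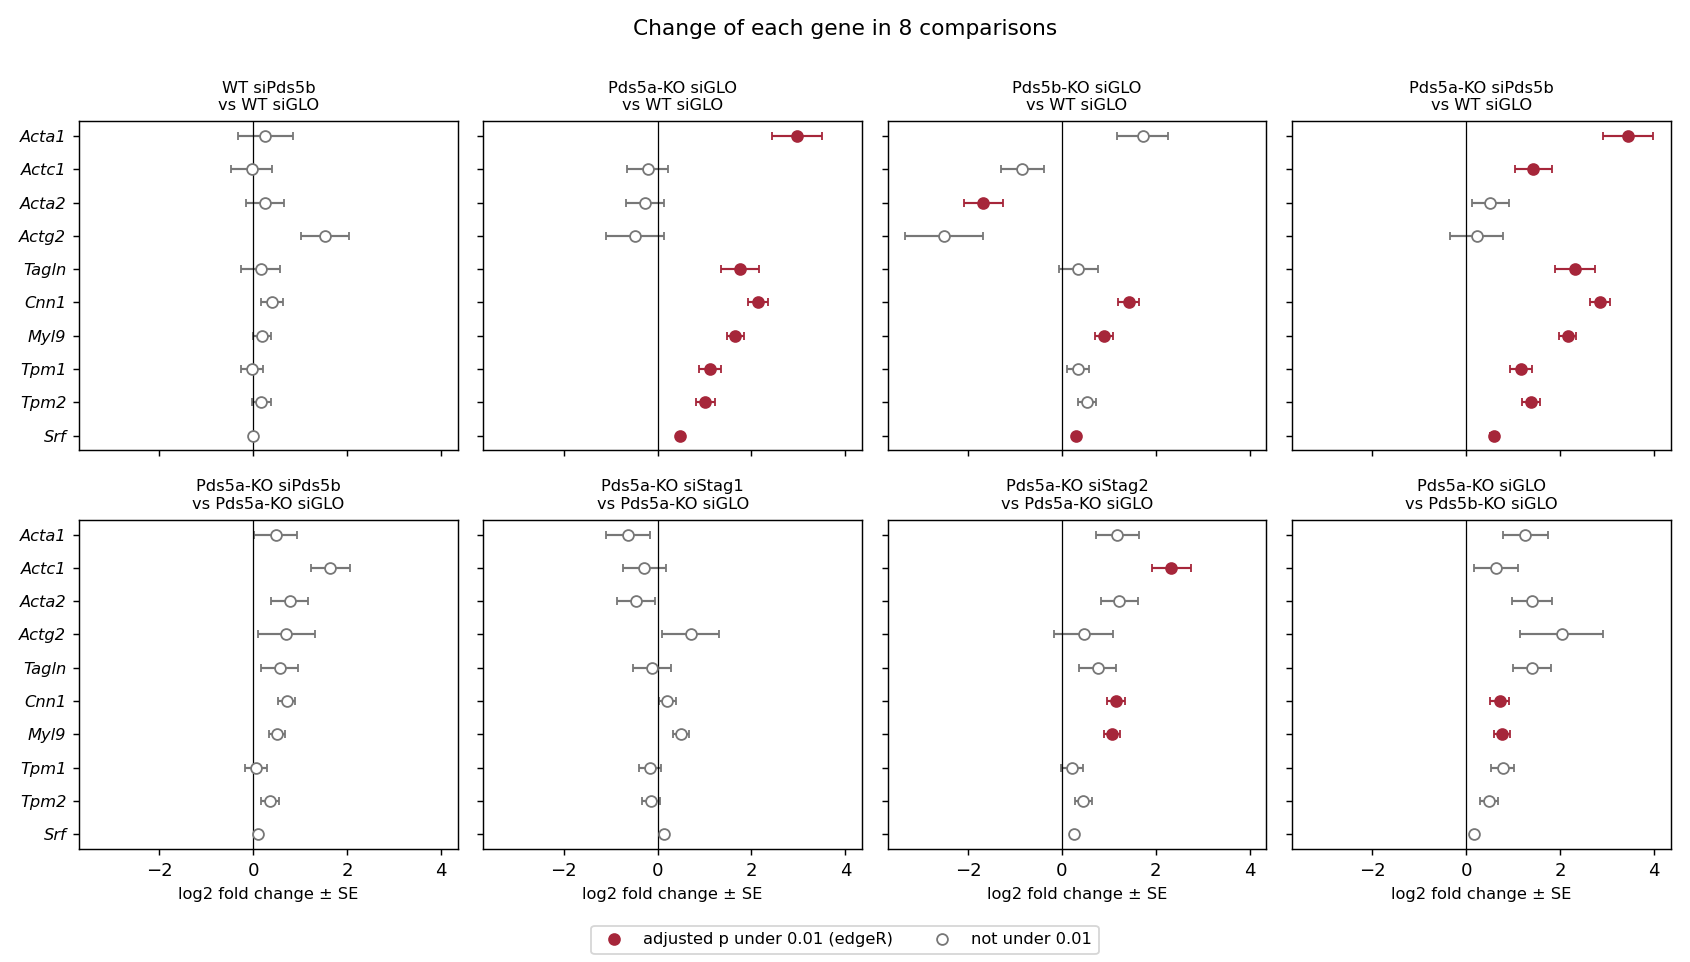
Log2 fold change of each of the 10 genes in 8 comparisons, with bars of 1 SE from edgeR and filled points for an adjusted p under 0.01. *Acta1*, *Cnn1*, *Tagln* and *Myl9* have the largest values against WT siGLO in Pds5a-KO siPds5b, and *Actc1* stands out in Pds5a-KO siStag2 against Pds5a-KO siGLO (2.33).

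Depletion of *Pds5b* in wild-type cells (WT siPds5b against WT siGLO) left the members close to the control. None of the 10 genes was called by edgeR or by DESeq2, where edgeR called 0% of all genes tested higher and 0.00668% lower, and 1 of the 10 had an unadjusted p under 0.05. That gene was *Actg2*, with 19, 18 and 14 reads against 11, 2 and 8. *Acta1* was at 214, 136 and 137 normalised counts, within or just above its WT siGLO range (log2 fold change 0.26, SE 0.59). *Srf* was at 1261, 1333 and 1235 normalised counts (log2 fold change 0.00, SE 0.07). The *Pds5b* transcript that remained, 776 normalised counts, was more than the 276 in the knockout clone.

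With *Pds5b* depleted in the *Pds5a* knockout (Pds5a-KO siPds5b against WT siGLO), 8 of the 10 genes were called and all 8 were higher, where 17.4% of all genes tested were called higher and 14.6% lower. *Acta1* was at 641, 1803 and 2034 normalised counts, a 10.9-fold higher mean than WT siGLO and a log2 fold change of 3.45 (SE 0.53, adjusted p = 0.000106, edgeR). *Cnn1* was at 682, 975 and 851 normalised counts, 7.19-fold higher (log2 fold change 2.85, adjusted p = 4.12e-09). *Tagln* was at 4159.8, 10419 and 8865 normalised counts and *Myl9* at 793, 1002 and 759, with log2 fold changes of 2.32 and 2.16. None of these groups overlapped WT siGLO.

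*Actc1* joined the genes called in this condition. Its normalised counts were 85.2, 244 and 155, above the highest WT siGLO library (80.2) in all 3 replicates. The log2 fold change was 1.43 with an SE of 0.40 (adjusted p = 0.00761, edgeR). The call was lost without Pds5a-KO siPds5b replicate 2 (adjusted p = 0.0531) or replicate 3 (0.0184), and without WT siGLO replicate 1 (0.041) or replicate 2 (0.0255). *Tpm1* (1.17), *Tpm2* (1.38) and *Srf* (0.58) were the other genes called. *Acta2*, at 948, 2525 and 2219 normalised counts, overlapped WT siGLO with a log2 fold change of 0.51 (adjusted p = 0.315).

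What the *Pds5b* siRNA added to the *Pds5a* knockout was read against Pds5a-KO siGLO, the libraries that also serve the first comparison. All 10 genes had positive log2 fold changes with a median of 0.53, but none was called by edgeR in the unblocked fit, where 4% of all genes tested were called higher and 3.59% lower. Unadjusted p was under 0.05 for 3 genes, and DESeq2 called 2 (*Actc1* and *Cnn1*), where it called 4.94% of all genes it tested higher. Replicates with the same number moved together in these conditions, and when the fit was blocked on that number edgeR called 3 genes higher, where the blocked fit called 5.73% of all genes tested higher and 4.75% lower. They were *Actc1* (log2 fold change 1.63, adjusted p = 0.000151), *Cnn1* (0.71, 4.72e-05) and *Myl9* (0.51, 0.00162). For all 3 every siPds5b library lay above every siGLO library of the clone. Without the block the adjusted p of *Actc1* was 0.0108, of *Cnn1* 0.0152 and of *Myl9* 0.0507. *Srf* (log2 fold change 0.10) and *Tpm1* (0.05) had the values nearest to 0.

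The difference between the siPds5b effect in the knockout and in wild-type cells was tested as an interaction. No member passed, where edgeR called 0.588% of all genes tested higher and 0.896% lower. Of the 10 genes 1 had an unadjusted p under 0.05 and DESeq2 called 0. That member was *Actc1*, with an interaction of 1.68 (SE 0.60, adjusted p = 0.139) from -0.03 in wild type and 1.64 in the knockout.

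The 2 STAG subunits were depleted in the *Pds5a* knockout and gave different values. With siStag1, none of the 10 genes was called by edgeR or DESeq2, where edgeR called 0.0134% of all genes tested higher and 0.0802% lower, and 1 had an unadjusted p under 0.05. That gene was *Myl9*, at 732, 932 and 874 normalised counts against 513, 730.5 and 559.99 (log2 fold change 0.49, SE 0.17, adjusted p = 0.259). *Acta1* was at 368, 820.07 and 894 normalised counts, overlapping Pds5a-KO siGLO, with a log2 fold change of -0.63 (SE 0.46). *Actc1* was at 21.3, 58.9 and 47.2 normalised counts, also overlapping.

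With siStag2, 3 of the 10 genes were called and all 3 were higher, where 0.969% of all genes tested were called higher and 1.27% lower. *Actc1* was at 259.6, 316 and 203 normalised counts against 28.4, 76.7 and 48.2 in Pds5a-KO siGLO. The lowest siStag2 library was more than 2-fold above the highest control library, and the mean was 5.04-fold higher. The log2 fold change was 2.33 with an SE of 0.41 (adjusted p = 0.0025, edgeR).

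*Cnn1* with siStag2 was at 1034, 1268 and 1095 normalised counts (log2 fold change 1.15, SE 0.19, adjusted p = 0.00161, edgeR) and *Myl9* at 1224, 1394 and 1148 (1.06, SE 0.17, adjusted p = 0.00109). Every siStag2 library of both genes lay above every siGLO library of the clone. The *Actc1* call was lost without Pds5a-KO siGLO replicate 1 (adjusted p = 0.0158) or Pds5a-KO siStag2 replicate 1 (0.012), and the *Cnn1* call without Pds5a-KO siGLO replicate 1 (0.011). In the fit with the replicate block *Srf* was called as well, at 2133, 2236 and 2026 normalised counts (log2 fold change 0.26, adjusted p = 0.00834, against 0.0169 without the block).

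*Acta1* and *Acta2* reached their highest levels with siStag2 without passing the threshold. *Acta1* was at 2230.1, 2463 and 2592 normalised counts, all above the highest Pds5a-KO siGLO library (1372), with a log2 fold change of 1.18 (SE 0.45, adjusted p = 0.124, edgeR). *Acta2* was at 2294, 2914 and 2556 normalised counts, all above the highest Pds5a-KO siGLO library (1522), with a log2 fold change of 1.22 (SE 0.40, adjusted p = 0.0729). These standard errors come from a fit whose spread all 7 conditions share. With the replicate block they were 0.34 for *Acta1* and 0.30 for *Acta2*. Neither gene was called by edgeR with the block (adjusted p = 0.0265 and 0.0139). *Tagln* was at 8704, 9698 and 8539 normalised counts (log2 fold change 0.76, SE 0.40), above all siGLO libraries, and *Tpm1* overlapped them (0.22, SE 0.24).

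The direct difference between siStag2 and siStag1 was added after the values were seen. *Actc1* was called, 6.15-fold higher with siStag2 (log2 difference 2.62, SE 0.42, adjusted p = 0.00549, edgeR), where 0.167% of all genes tested were called higher and 0.227% lower. That call was lost without any 1 of the 6 libraries, with adjusted p from 0.01 to 0.0292. Of the 10 genes 7 had an unadjusted p under 0.05, beside 2971 of the 14963 genes tested. Positive values were seen for 9 of the 10, all but *Actg2* (-0.24). Groups did not overlap for *Acta1* (1.81, SE 0.47, adjusted p = 0.0572), *Acta2* (1.69, SE 0.41, 0.0445), *Tagln* (0.88, SE 0.40, 0.239), *Cnn1* (0.94, SE 0.19, 0.0152), *Myl9* (0.57, SE 0.17, 0.0704), *Tpm1* (0.39, SE 0.24, 0.39) and *Tpm2* (0.60, SE 0.19, 0.09). Genes without overlap were not counted over all genes tested, here or in the other comparisons, so nothing is read from how many members lacked overlap.

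Ordered by mean level over the 7 conditions, 9 of the 10 genes were highest in Pds5a-KO siStag2, and *Actg2* in WT siPds5b. Neither this order nor the separated steps below were counted over all genes tested, so nothing is read from these counts. For *Acta1* the order from the lowest was WT siGLO, WT siPds5b, Pds5b-KO siGLO, Pds5a-KO siStag1, Pds5a-KO siGLO, Pds5a-KO siPds5b and Pds5a-KO siStag2. Its neighbours in that order were separated by their replicates only between WT siPds5b and Pds5b-KO siGLO and between Pds5a-KO siPds5b and Pds5a-KO siStag2. *Cnn1* had the most separated steps, 4 of 6, and its 2 pairs of overlapping neighbours were the wild-type conditions and Pds5a-KO siGLO with siStag1. *Acta2* had none, and Pds5b-KO siGLO held its lowest mean (417) and Pds5a-KO siStag2 its highest (2588). *Actc1* had 1 separated step, between WT siGLO (59.3 normalised counts) and Pds5a-KO siPds5b (161).

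Replicate 1 was the lowest replicate for at least 7 of the 10 members in 4 of the 7 conditions. In Pds5a-KO siGLO it was lowest for 9 of the 10 genes, in Pds5b-KO siGLO for 8, in Pds5a-KO siPds5b for 7 and in Pds5a-KO siStag1 for 9. In WT siGLO it was lowest for 6, and in WT siPds5b and Pds5a-KO siStag2 for 3. In the 4 conditions replicate 1 was lowest for 36.7% to 38.9% of all genes tested. The median ratio of replicate 1 to the mean of the others was 0.529, 0.587, 0.661 and 0.656 in these 4 conditions, 0.873 in WT siGLO, 0.987 in WT siPds5b and 0.981 in Pds5a-KO siStag2.

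*Acta1* in Pds5a-KO siPds5b had the lowest ratio outside *Actg2*, 0.334, and in Pds5a-KO siGLO its ratio was 0.383. *Tagln* was at 0.424 and *Acta2* at 0.406 in Pds5a-KO siGLO. *Srf* did not share the pattern, with ratios between 0.924 and 1.05 in the 7 conditions. *Cnn1* and *Myl9* were less affected, at 0.783 and 0.795 in Pds5a-KO siGLO. In Pds5a-KO siGLO against WT siGLO the log2 standard error was 0.53 for *Acta1*, 0.40 for *Acta2* and 0.41 for *Tagln*, and 0.07 for *Srf*.

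*Rn45s* was higher in replicate 1 of Pds5a-KO siGLO (1.436% against 0.527% and 0.619%) and Pds5b-KO siGLO (1.373% against 0.541% and 0.477%), and also in replicate 1 of WT siGLO (1.23% against 0.535% and 0.624%), where the members' median ratio was 0.873. In Pds5a-KO siPds5b replicate 1 had 0.85% against 0.718% and 0.903%, and in Pds5a-KO siStag1 it had 0.874% against 0.94% and 0.678%. *Col1a1*, a fibroblast collagen, was also lowest in replicate 1 of Pds5a-KO siGLO, with 125 reads against 506 and 663. The fibroblast marker sum was lowest in replicate 1 of Pds5a-KO siGLO, Pds5a-KO siPds5b and Pds5a-KO siStag1. In Pds5b-KO siGLO that sum was highest in replicate 1, with 662.9 normalised counts against 551 and 626. The part of *Rn45s* and of the fibroblast markers in the members' values was not tested.

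**Figure D3:**
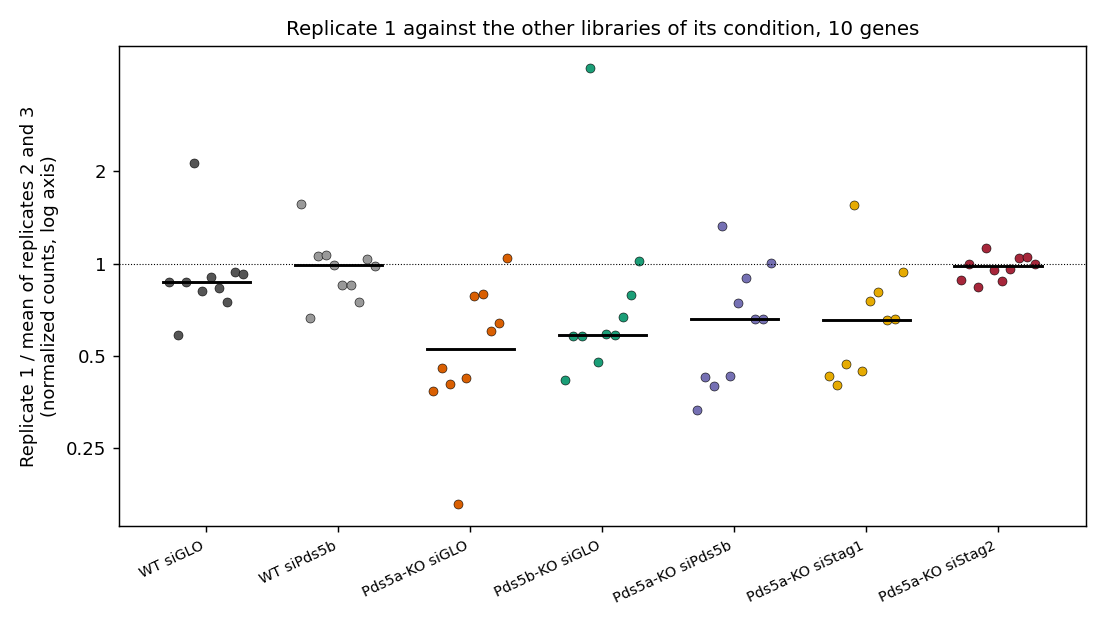
Ratio of replicate 1 to the mean of replicates 2 and 3 for each of the 10 genes in the 7 conditions (log axis; the dotted line marks a ratio of 1 and the bars the medians). The members lie mostly below 1 in Pds5a-KO siGLO, Pds5b-KO siGLO, Pds5a-KO siPds5b and Pds5a-KO siStag1, with medians from 0.529 to 0.661, while the medians are 0.873 in WT siGLO, 0.987 in WT siPds5b and 0.981 in Pds5a-KO siStag2, with *Srf* near 1 throughout.

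With all libraries numbered 1 left out, a choice made after this pattern was seen, 7 members were called higher in Pds5a-KO siGLO against WT siGLO, where 11.2% of all genes tested were. In Pds5b-KO siGLO 6 members were higher and 1 lower, beside 8.84% and 7.24% of all genes, and in Pds5a-KO siPds5b 9 were higher, beside 17.5%. In the *Pds5a* knockout 5 were higher with siPds5b, beside 4.12% of all genes, and 5 with siStag2, beside 0.681%. *Acta1* was then called lower with siStag1 (log2 fold change -0.65, adjusted p = 0.00123, edgeR), where 0.401% of all genes were. In Pds5b-KO siGLO *Acta1*, *Tagln*, *Tpm1* and *Tpm2* were added and *Srf* was lost (0.26, adjusted p = 0.0239). No member that was called with or without these libraries changed direction.

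The rest of the SRF pathway was described from 3 lists. Of 40 other MRTF-type targets (contractile and actin cytoskeleton genes), 12 were called higher and 0 lower in Pds5a-KO siGLO against WT siGLO. Of all genes tested 9.63% were called higher and 8.12% lower there. The median log2 fold change of the list was 0.28 against 0 over all genes. *Fhl2*, a LIM-domain cofactor, had the largest, 3.05 (17.2, 16.9 and 23.2 normalised counts to 113, 173 and 194). *Lmod1*, which nucleates actin filaments in smooth muscle, had 1.97, the smoothelin gene *Smtn* 0.54 and the actin cross-linker *Actn1* 0.53. In Pds5b-KO siGLO 6 of the 40 were higher and 2 lower, beside 9.64% and 8.57% of all genes tested, with a median of -0.02. *Ctgf*, a secreted matricellular protein, was at 2.28 and the intermediate filament gene *Synm* at 0.83, while *Wdr1*, which helps disassemble actin, was at -0.34 and *Ablim1*, an actin-binding LIM protein, at -1.87.

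In Pds5a-KO siPds5b 21 of the 40 were higher than in WT siGLO and 0 lower, beside 17.4% and 14.6% of all genes tested. The median of the list was 0.50. *Fhl2* (2.99) and *Ctgf* (2.86) led, and *Pdlim5* and *Dstn* (both 0.36) were the smallest of those called. With siPds5b against Pds5a-KO siGLO 5 were higher, *Itga1* (1.10), *Ctgf* (1.05) and *Itgb1* (0.33) among them, and *Lima1* was lower (-0.80). Of all genes tested 4% were higher and 3.59% lower. With the replicate number as a block, 9 of the 40 were higher and 1 lower, beside 5.73% and 4.75% of all genes tested. Leaving out single libraries gave 2 to 9 calls of the 40 in all. With siStag2 4 of the 40 were higher, where 0.969% of all genes tested were higher and 1.27% lower. They were *Smtn* (0.66), *Vcl* (0.52), *Flna* (0.47) and *Pdlim5* (0.34), which encode proteins of focal adhesions and actin networks. The replicate block gave 12 higher and 0 lower for siStag2, where it called 2.43% of all genes tested higher and 2.1% lower, and the count fell to 1 without Pds5a-KO siGLO replicate 1 and to 0 without Pds5a-KO siStag2 replicate 1. With siStag1 none was called by edgeR or DESeq2, and 6 had an unadjusted p under 0.05. In WT siPds5b none was called by either, and 1 had an unadjusted p under 0.05. Between the knockout clones 13 of the 40 were higher and 3 lower in Pds5a-KO siGLO, beside 9.74% and 9.46% of all genes tested. *Fhl2* (2.25) and *Mical2* (1.69), an enzyme that oxidises actin, stood at the upper end and *Itgb1* (-0.74) and *Synm* (-1.07) at the lower. For siStag2 against siStag1 *Tgfb1i1*, a focal adhesion adaptor, was called higher (1.29), where 0.167% of all genes tested were.

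The cytoplasmic actins of this list, singled out after their values were seen, differed from each other. *Actb* was at 36137, 40791 and 39551 normalised counts in WT siGLO and at 43307, 41316 and 36432 in Pds5a-KO siGLO, which overlap (log2 fold change 0.06, adjusted p = 0.695, edgeR). *Actg1* was at 18843, 20835 and 22258 in WT siGLO and at 32827, 34201 and 30739 in Pds5a-KO siGLO, with no overlap (log2 fold change 0.66, adjusted p = 3.05e-07). CArG boxes were exact in 23.53% of the 34 MRTF-type targets with a promoter window.

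Of the TCF-type targets, 12 of 13 were tested. In Pds5a-KO siGLO *Mcl1*, a survival gene, was higher (0.41) and *Ier2* lower (-0.54). That was 1 of 12 in each direction, beside 9.63% of all genes tested higher and 8.12% lower. In Pds5b-KO siGLO *Egr1* was higher (0.95) and 0 were lower, beside 9.64% and 8.57% of all genes tested. In Pds5a-KO siPds5b 3 were higher than in WT siGLO, *Dusp1* (0.89) and *Mcl1* (0.72) among them, and *Ier2* was lower (-0.81). These 3 and 1 of 12 stand beside 17.4% of all genes tested called higher and 14.6% lower, and the median of the list was 0.57. With siPds5b in the knockout 2 were higher, *Mcl1* (0.32) among them, where 4% of all genes tested were. Between the clones *Ier2* was lower in Pds5a-KO siGLO (-0.83) and 0 were higher, beside 9.46% of all genes tested lower and 9.74% higher. With siStag1, siStag2 and in WT siPds5b none was called by edgeR or DESeq2, and 1, 4 and 0 had an unadjusted p under 0.05.

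Of 24 sarcomere genes 21 were tested, and here genes were called in both directions. Their median log2 fold change was 0.39 in Pds5a-KO siGLO (16 of 21 positive), 0.63 in Pds5b-KO siGLO (17 of 21) and 0.02 in Pds5a-KO siPds5b (13 of 21) against WT siGLO, beside 0 over all genes. In Pds5a-KO siGLO 5 were higher, *Tnnc1* (2.06), the slow and cardiac troponin C, and the cardiac myosin *Myh6* (1.24) among them. There 3 were lower, the embryonic myosin *Myh3* (-1.42) and titin (*Ttn*, -1.09) among them, beside 9.63% of all genes tested higher and 8.12% lower. In Pds5b-KO siGLO 3 sarcomere genes were higher, *Myh6* (1.17) and *Actn3* (0.72) among them, and 1 lower, beside 9.64% and 8.57% of all genes tested. In Pds5a-KO siPds5b 5 were higher than in WT siGLO, *Myh7* (2.50), *Myh6* (2.15) and *Actn2* (1.30) among them, and 2 lower, *Myh3* (-2.16) among them, where 17.4% of all genes tested were higher and 14.6% lower. With siPds5b in the knockout *Myh6* was higher (0.92) and *Actn3* lower (-0.88), 1 of 21 in each direction, beside 4% and 3.59% of all genes tested. With siStag2 none was called by edgeR, 3 had an unadjusted p under 0.05, DESeq2 called 1 and the replicate block called 1, which was lower. With siStag1 none was called by either tool and 4 had an unadjusted p under 0.05. In WT siPds5b none was called by either and 0 had an unadjusted p under 0.05. Between the clones *Tnnc1* (2.06) and *Tnnt1* (0.83) were higher in Pds5a-KO siGLO, and *Myh3* (-1.94) and *Ttn* (-1.72) lower. These 2 of 21 in each direction stand beside 9.74% of all genes tested called higher and 9.46% lower. *Tnnc1* was higher with siStag2 than with siStag1 (1.71), where 0.167% of all genes tested were.

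**Figure D4:**
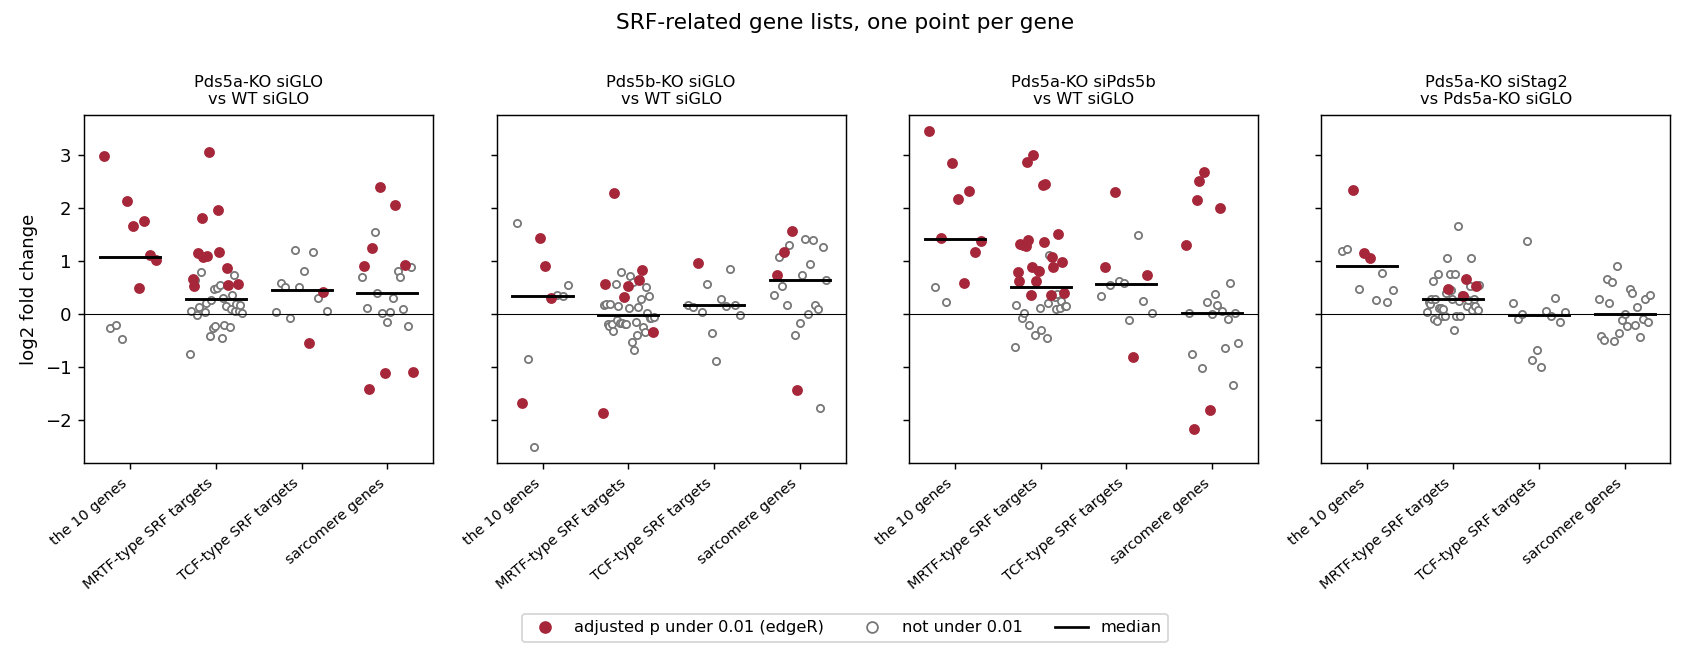
Log2 fold change (vertical axis) of each tested gene of the 10 members and of 3 lists of the SRF pathway (horizontal axis), in 4 comparisons, with filled points for genes at an adjusted p under 0.01 (edgeR), open points for the others and a bar at the median. In Pds5a-KO siPds5b against WT siGLO the 21 MRTF-type targets called are all above 0, and the sarcomere genes have filled points on both sides of 0.

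Markers of cell types that carry these genes were counted beside the members. The sum over 7 smooth muscle markers, of which *Cnn1* is a member and 5 others stand in the MRTF list, was 1467 to 1642 normalised counts in WT siGLO, 2045 to 2566 in Pds5a-KO siGLO, 2533 to 3316 in Pds5a-KO siPds5b and 3546 to 3722 in Pds5a-KO siStag2. In Pds5a-KO siGLO 3 of the 7 were called higher than in WT siGLO, and in Pds5a-KO siPds5b 5, beside 9.63% and 17.4% of all genes tested. *Myocd*, the smooth muscle and cardiac SRF cofactor and a defining gene of that list, had 2, 3 and 3 reads in WT siGLO, 5, 8 and 11 in Pds5a-KO siGLO, 7, 7 and 8 in Pds5b-KO siGLO, 12, 21 and 9 in Pds5a-KO siPds5b and 15, 6 and 6 in Pds5a-KO siStag2. The sum over 10 cardiomyocyte markers was 329.97 to 366 normalised counts in WT siGLO, 410.4 to 569.6 in Pds5a-KO siGLO, 682 to 772 in Pds5a-KO siPds5b and 543 to 560.01 in Pds5a-KO siStag2.

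The skeletal muscle determination gene *Myod1* had at most 18 reads in any library, and the sum over 8 skeletal muscle markers lay between 72.6 and 463 normalised counts. That sum was 158 to 222 in WT siGLO and 260 to 463 in Pds5b-KO siGLO. Of the 4 skeletal muscle markers tested, 0 were called in Pds5b-KO siGLO, and 4 had an unadjusted p under 0.05, beside 6367 of 14963 genes tested. The sum over 9 fibroblast markers was 658 to 1555 normalised counts in Pds5a-KO siGLO and 679 to 992 in Pds5a-KO siStag2, where the members were highest, against 1231 to 1619 in WT siGLO. The sum over 6 mesoderm markers was 167 to 681 normalised counts in WT siGLO, with replicate 1 at the lower end, and 364 to 550.4 in Pds5a-KO siGLO. Of the 5 mesoderm markers tested, 1 was called higher in Pds5a-KO siGLO, where 9.63% of all genes tested were. Its log2 fold change of 3.50 was the only positive value of the list. The mESC marker sum was 140360 to 151010 in WT siGLO, 112010 to 126600 in Pds5a-KO siGLO and 84110 to 99075 in Pds5a-KO siStag2. In Pds5a-KO siGLO 5 of the 9 mESC markers were called lower than in WT siGLO, where 8.12% of all genes tested were. *Nanog*, a core pluripotency factor, had 12221, 8808 and 13224 reads in WT siGLO and 3954, 3562 and 4547 in Pds5a-KO siStag2. The part of these markers in the members' values was not tested.

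The members fell into unlike patterns over the 7 condition means of log2 CPM (counts scaled to library size). Correlation with *Tagln* was 0.979 for *Tpm1*, 0.975 for *Tpm2*, 0.964 for *Myl9*, 0.961 for *Cnn1*, 0.957 for *Acta1* and 0.934 for *Srf*, but 0.696 for *Actc1*, 0.467 for *Acta2* and 0.018 for *Actg2*. Among 12175 genes whose mean log2 CPM reached 1, the genes most like *Tagln* were *Limk1* (0.996), *Il23a* (0.995), *Slc22a23* (0.994), *Myo1e* (0.994) and *Arpc5* (0.993). Those most like *Actc1* were *Arhgap44* (0.972), *Zdhhc2* (0.969), *Slc17a5* (0.965), *Sun2* (0.963) and *Tm9sf2* (0.961). These are Pearson values over only 7 points that share libraries and the *Pds5a* clone, and many genes follow the same order of conditions.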

How the data were processed

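PolyA RNA of 21 libraries was sequenced as 150-base read pairs. The deposited files hold raw read counts per gene symbol, made by the authors from alignments to mm10 with STAR; the counting tool, annotation and strand setting are not given in the sources used here. All columns of the files were used. Counts were analysed with edgeR 4.0.16 in R 4.3.3 (TMM scaling, filterByExpr by condition, robust quasi-likelihood fit) in 1 model of the 7 conditions, after testing on simulated counts. P-values were adjusted by Benjamini-Hochberg over 14963 genes, and an adjusted p under 0.01, the threshold of the study's methods, was called. DESeq2 1.42.0 was an alternative. An unadjusted p was under 0.05 for 631 of the genes tested in WT siPds5b against WT siGLO and for 2589 in the interaction. In the *Pds5a* knockout it was so for 4379 with siPds5b, 1598 with siStag1 and 3783 with siStag2, each against siGLO. The members and lists were chosen with earlier results of these data known, and 1 list is not reported here. All members are named, and from each list at most the 2 called genes with the highest and the 2 with the lowest log2 fold change per comparison, of those whose mean log2 CPM reached 1; 5 genes each are named as most like *Actc1* and *Tagln*. Genes named outside this rule are targets, markers or said to be chosen later.

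Replicate numbers come from the sample titles. Deviations of same-numbered libraries from their group means correlated over 0.1 in every pair, over 12176 genes, for siPds5b against siGLO in wild type (lowest 0.345) and for siPds5b (0.331), siStag1 (0.155) and siStag2 (0.14) against siGLO in the *Pds5a* knockout, so a replicate block was fitted there. Library totals ran from 17311090 to 23989198 counts. Exon lengths came from GENCODE vM21 and promoter windows from RefSeq, both mm10, with 8 of the 10 members matched to a window.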

Additional observations from a re-analysis of the deposited data

Results flagged for a closer look

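Among the genes of the pathway lists, 2 responded differently to the *Pds5b* siRNA in wild-type and in *Pds5a* knockout cells by the interaction term of the edgeR fit. They were 1 of 40 MRTF-type targets, called higher, and 1 of 21 sarcomere genes tested, called lower, with 0 of 12 TCF-type targets. Of all genes tested 0.588% were called higher and 0.896% lower, so nothing is read from the count. *Ctgf*, a secreted matricellular SRF target, had a log2 fold change of 0.01 in wild type and 1.05 in the knockout, an interaction of 1.04 (SE 0.14, adjusted p = 8.03e-05). *Actn3*, an actin cross-linker of fast muscle fibres, had 0.02 in wild type and -0.88 in the knockout, an interaction of -0.9 (SE 0.15, adjusted p = 0.000774). The 2 genes moved in opposite directions, and the *Pds5b* transcript left after the siRNA was 776 normalised counts in wild type and 903 in the knockout.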

How the results depend on the processing

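No direction of a called member was reversed by any alternative. *Acta1*, *Cnn1*, *Myl9*, *Tpm2* and *Srf* were called in Pds5a-KO siGLO against WT siGLO under every alternative run.

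The replicate block, in comparisons where the numbers pair the libraries, moved the members called for siPds5b in the *Pds5a* knockout from 0 to 3 and changed no other count of members by more than 1.5 times. Where the numbers are only a shared number, the block gave 6 in place of 4 in Pds5b-KO siGLO against WT siGLO. There it gave 5 in place of 2 between the clones, and 5 in place of 1 for siStag2 against siStag1.

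Pds5b-KO siGLO against WT siGLO gave 7 in place of 4 at an adjusted p under 0.05, 7 with all libraries numbered 1 left out and 6 with DESeq2. siPds5b in the *Pds5a* knockout gave 2 at 0.05, 1 with RLE scaling, 1 with library size only, 2 with DESeq2 and 5 without the libraries numbered 1. siStag1 gave 1 and siStag2 gave 5 without the libraries numbered 1. Between the clones the count was 6 at 0.05, 1 with RLE, with library size only and with no filter, 0 with only the conditions compared, 5 with DESeq2 and 7 without the libraries numbered 1. siStag2 against siStag1 gave 3 at 0.05, 3 with only the conditions compared, 4 with DESeq2 and 5 without the libraries numbered 1. The cause of these changes was not tested.

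Leaving out 1 replicate at a time gave 5 to 7 calls in Pds5a-KO siGLO, 2 to 3 in Pds5b-KO siGLO, 7 to 8 in Pds5a-KO siPds5b, 0 to 2 for siPds5b, 0 for siStag1, 1 to 3 for siStag2, 0 to 5 between the clones, and 0 for siStag2 against siStag1, for the interaction and for WT siPds5b.

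The counts called in the lists also moved. Of the MRTF-type targets, the alternatives, single libraries left out included, gave 8 to 21 in Pds5a-KO siGLO, 7 to 12 in Pds5b-KO siGLO, 20 to 26 in Pds5a-KO siPds5b, 2 to 11 for siPds5b in the knockout, 0 to 12 for siStag2, 10 to 20 between the clones and 0 to 10 for siStag2 against siStag1. Of the TCF-type targets, between 1 and 6 were called between the clones (4 without Pds5a-KO siGLO replicate 1), and of the sarcomere genes 6 to 10 in Pds5a-KO siGLO and 3 to 10 in Pds5b-KO siGLO.

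Depth limits *Actg2*, at 20 reads or fewer in every library.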
